A study of Mus musculus with 12 samples.

Results

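RNA of retinal ganglion cells (RGCs) from newborn Ezh2 knockout mice (mKO) was compared with RNA of the retinal cells left after the RGCs had been removed (non-RGCs). The comparison rests on 3 mKO RGC and 3 mKO non-RGC libraries, which the sample labels place in these groups and which make up 6 of the 12 libraries of the series. The other 6 libraries hold the same fractions of wild-type (WT) pups. All pups were C57/BL6 at postnatal day 0. The mKO pups carried Cre recombinase knocked into the Math5 locus together with Ezh2 alleles in which loxP sites flank the exons for the catalytic SET domain (Ezh2 fl/fl). Math5-Cre acts in only part of the RGCs, so an mKO RGC library mixes cells with and without recombination. Retinas were dissociated with papain, RGCs were bound by magnetic beads that carry an antibody to CD90 (Thy-1), and the unbound cells made up the non-RGC fraction. Each group had 3 independent RNA extractions; the sources used here do not say how many pups went into each, or whether an RGC and a non-RGC library came from the same retinas, so the p-values measure the spread between extractions.

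RGCs are the output neurons of the retina. They are born early from dividing progenitors under the control of Math5 (Atoh7), Pou4f and Isl1 transcription factors, send the only axons that leave the eye, and release glutamate onto their targets in the brain. At birth the rest of the mouse retina consists of dividing progenitors, newborn rod photoreceptors, cones, amacrine cells and horizontal cells, with few bipolar cells and no mature Müller glia. Ezh2 is the methyltransferase of Polycomb repressive complex 2 (PRC2), which places the repressive mark H3K27me3 on histone H3.

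The recovered libraries held 12391602 to 13014004 reads in mKO RGCs and 12828281, 10288195 and 7139633 reads in mKO non-RGCs, and 10600964 to 12328717 reads in the WT libraries. Libraries are lettered A to C within a group from the most to the fewest reads. Across genes, log2 levels correlated with r = 0.986 to 0.992 among the mKO RGC libraries, 0.960 to 0.986 among the mKO non-RGC libraries and 0.744 to 0.809 between the fractions. Among these libraries, mKO non-RGC C was the shallowest. Its log2 levels, as differences from each gene's mean over all 12 libraries, had the most negative Spearman correlation across genes with transcript length (-0.46). The other mKO non-RGC libraries had 0.11 and -0.19, and mKO RGCs 0.20 to 0.32. These correlations are relative to the other libraries. Among the mKO libraries, RGC A had the most reads of mesenchymal genes (WT RGC B had more), and WT RGC C was closer to the WT non-RGC libraries (r = 0.851 to 0.867) than the other WT RGC libraries were. Counts without mKO RGC A, mKO non-RGC C and WT RGC C, called the 3 libraries that stand apart, are given where they bear on a result.

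The RGC and non-RGC tables were normalized apart. Their values are gene reads divided by the authors' size factor of each library, called normalised reads here. The non-RGC values were multiplied by 0.9905, the median ratio of mKO RGC to mKO non-RGC means over the 12034 genes with at least 50 in both, so every fold change is relative to that median and levels between fractions are not absolute. A gene was called higher or lower when limma gave a Benjamini-Hochberg adjusted p under 0.05 over all genes tested and a fold change of at least 1.5 on the log2(normalised reads + 1) scale. Fold changes of genes with few reads are understated on that scale.

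The 5 RGC markers were higher in every mKO RGC library than in every mKO non-RGC library. Thy1, which encodes the surface protein held by the beads, had 1425, 1426 and 1422 in the mKO RGC libraries and 66.4, 78.8 and 92.3 in the mKO non-RGC libraries, an 17.9-fold difference that the sort itself selects. Pou4f1 (Brn3a), a transcription factor of RGC differentiation, had 2581, 2754 and 2777 in the mKO RGC libraries and 202, 164 and 204 in the mKO non-RGC libraries (log2 fold change 3.83, SE 0.109, limma adjusted p = 5.35e-07). Pou4f2 (Brn3b), which acts earlier in RGC differentiation, had 2009, 2076 and 2118 in the mKO RGC libraries and 176, 198 and 129 in the mKO non-RGC libraries (3.64, SE 0.153, adjusted p = 9.33e-07). Within each fraction these levels varied far less than between fractions. Pou4f3 (Brn3c) reached 1085, 1134 and 1098 in the mKO RGC libraries and 55.7, 51.3 and 44.8 in the mKO non-RGC libraries (4.43, SE 0.123). Rbpms, an RNA-binding protein found in nearly all RGCs, reached 2329.7, 2434 and 2506 in the mKO RGC libraries and 356, 380.0 and 306 in the mKO non-RGC libraries (2.80, SE 0.101). The median log2 fold change of the 5 markers was 3.83, against 0.07 over the 16333 genes tested. Their summed level was 9429 to 9921 in mKO RGCs and 776 to 872 in mKO non-RGCs, so RGC transcripts were reduced but present in the unbound fraction. In bulk RNA, fewer cells of a type and less RNA per cell cannot be told apart.

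**Figure D1:**
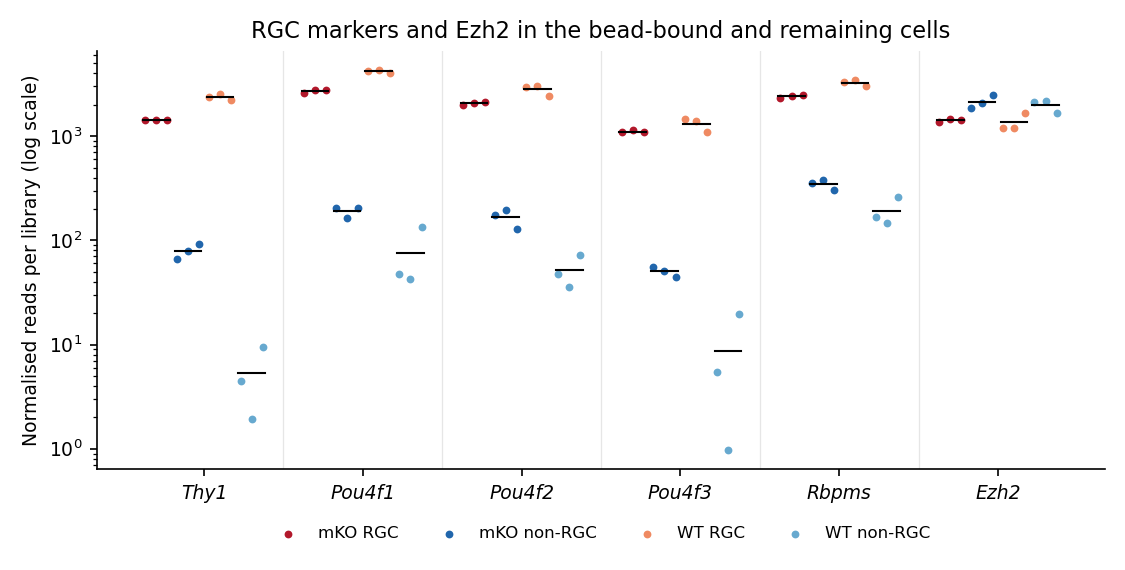
Normalised reads per library on a log scale for the 5 RGC markers and Ezh2, with non-RGC values rescaled to the RGC values; points are libraries and bars are means of 3. The markers were higher in the bead-bound cells of both genotypes, from 2.80 (Rbpms) to 4.43 (Pou4f3) on the log2 scale in mKO, while Ezh2 was lower in mKO RGCs than in mKO non-RGCs.

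Ezh2, the targeted gene, lies on chromosome 6 (chr6:47530139-47595341, minus strand, GRCm38). It had 1354, 1476 and 1443 in the mKO RGC libraries and 1871, 2087 and 2486 in the mKO non-RGC libraries, and each RGC library was below each non-RGC library (log2 fold change -0.58, SE 0.111, limma adjusted p = 0.00243). The change lay just inside the 1.5-fold limit, so the gene was not called, and it was called under several other settings. In WT the values were 1189.9, 1206 and 1678 in RGCs and 2118, 2152 and 1685 in non-RGCs (log2 fold change -0.56), and the difference between genotypes did not pass the test (difference -0.03, SE 0.207, adjusted p = 0.973). Reads were counted over the whole gene and not over the deleted exons alone, so these values do not check the knockout.

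By the authors' means, 16333 genes had at least 10 normalised reads in either mKO fraction and a median log2 ratio of 0.06. Of these, 3313 were at least 2-fold and 842 at least 8-fold higher in mKO RGCs, while 1142 were at least 2-fold and only 2 at least 8-fold higher in mKO non-RGCs. Large differences were thus mostly on the RGC side. With the libraries as replicates, limma called 4382 genes higher (26.8%) and 2150 lower (13.2%) in mKO RGCs, or 3222 (19.7%) and 1051 (6.43%) at a fold limit of 2. Without regard to the test, 6136 genes (37.6%) had every RGC library above every non-RGC library, against 4358 (26.7%) below. The split between directions depends on the common scale: when libraries were scaled by their total reads, the median of all genes shifted by -0.23, to -0.16, and 3572 genes were higher and 3608 lower, so that 49.7% of calls were higher in place of 67.1%. In WT, with no library in common, 3530 of 15750 genes were higher (22.4%) and 1574 lower (9.99%).

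**Figure D2:**
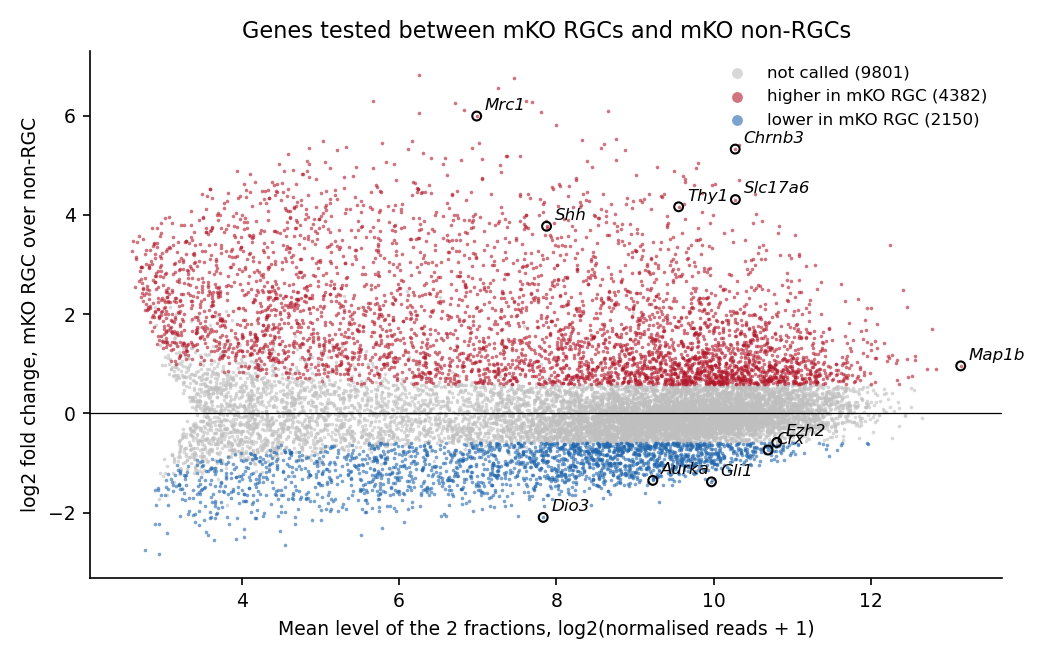
Each point is 1 of the 16333 genes tested. The x axis is log2(normalised reads averaged over the mKO fractions + 1) and the y axis the log2 fold change of mKO RGCs over mKO non-RGCs. Red and blue mark the 4382 higher and 2150 lower genes. Genes higher in RGCs reach 6.83 (F13a1) on the log2 scale, and the genes lower in RGCs lie closer to 0.

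The retinal gene lists divided by cell type. Genes of RGC identity, excitability, axons and guidance were mostly higher in mKO RGCs, and genes of cell division, progenitors, photoreceptors, amacrine cells and Notch signalling were mostly lower. Microglial genes were higher with the RGCs. The lists are described below in that order, each by its count of called members, which reads against the 26.8% of all genes called higher and 13.2% called lower, and by its median log2 fold change. At a fold limit of 2 (19.7% of all genes higher and 6.43% lower), 17 RGC transcription factors, 13 axon, 20 excitability and 14 guidance genes were higher, and 7 Notch, 10 photoreceptor, 9 amacrine and horizontal, and 2 Hedgehog genes were lower.

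**Figure D3:**
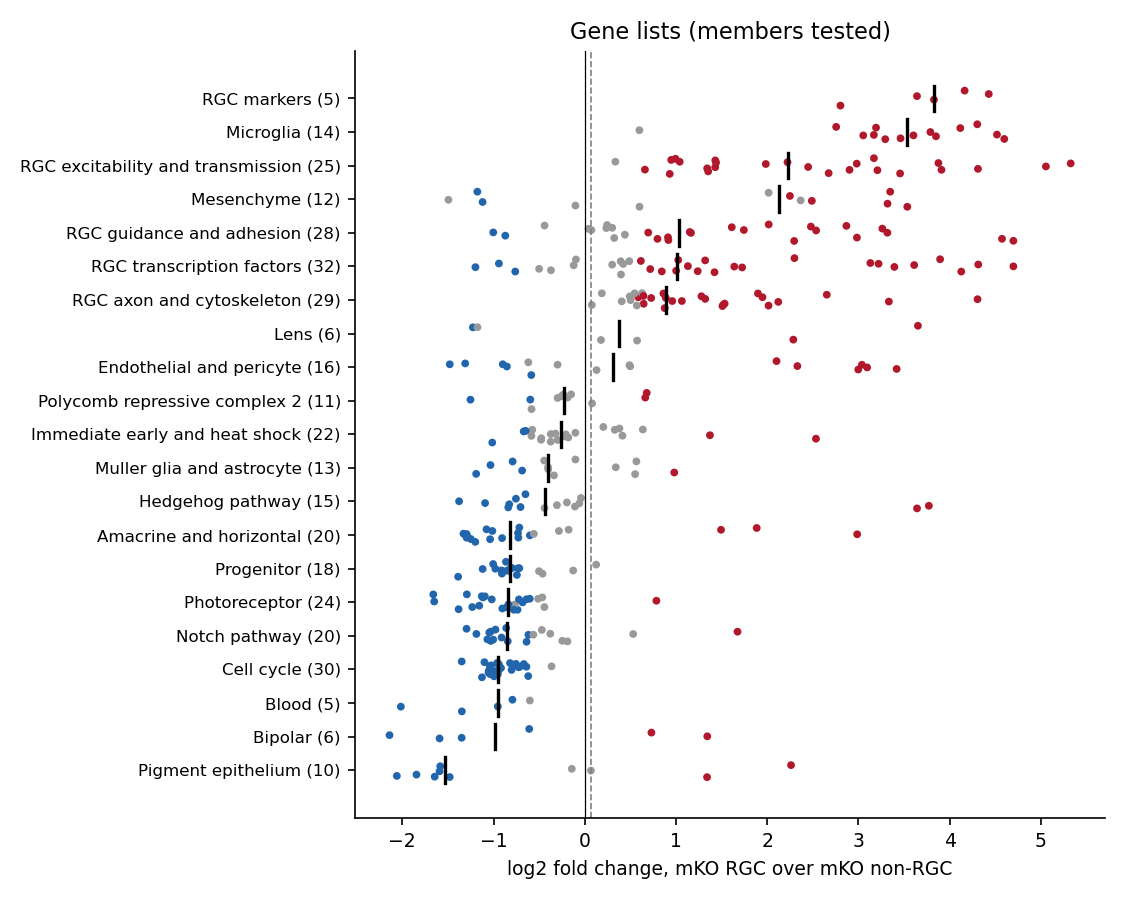
Log2 fold change of mKO RGCs over mKO non-RGCs for the tested members of each list (number in brackets); red is higher, blue lower and grey not called, the black bar is the list's median and the dashed line the median of all genes, 0.07. The RGC markers lie highest by median (3.83) and the pigment epithelium genes lowest (-1.53).

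Transcription factors known from RGCs were higher in 20 of 32 cases and lower in 3, with a median of 1.01. Tbr1, a T-box factor of a subset of RGCs, had 594, 590.1 and 573 in the mKO RGC libraries and 25.2, 23.7 and 16.8 in the mKO non-RGC libraries (log2 fold change 4.70, SE 0.18, limma adjusted p = 7.18e-07). Tbx20 had 1051, 1023 and 1072 in the mKO RGC libraries and 64.9, 76 and 28 in the mKO non-RGC libraries, with the lowest non-RGC value in library C, and Irx2, an Iroquois homeobox factor, had 1074, 1129 and 1128 in the mKO RGC libraries and 66.4, 71.2 and 51.8 in the mKO non-RGC libraries. All 3 genes were low in the unbound cells and separated the fractions in every library. Ebf1 (3699, 3993 and 4072 against 377, 465 and 421, log2 fold change 3.22) and Ebf3 (3510.2, 3631 and 3732 against 456, 459 and 336, 3.13), helix-loop-helix factors of early neurons, remained well detected in non-RGCs.

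Some factors are shared with other retinal neurons. Isl1, which RGCs share with amacrine and bipolar cells, had 1653, 1719 and 1815 in the mKO RGC libraries and 604, 795 and 688 in the mKO non-RGC libraries (1.32, SE 0.112), while Isl2, more restricted to RGCs, had 1048, 1121 and 1179 in the mKO RGC libraries and 223, 215 and 241 in the mKO non-RGC libraries (2.299, SE 0.0981). Eomes (Tbr2), found in intrinsically photosensitive RGCs and some amacrine cells, was 2.19-fold higher. Sox4, which acts in differentiating neurons of several types, was not called (1961, 2103 and 2092 against 1788, 2063 and 2862, -0.10, adjusted p = 0.621), and its sign turned without mKO non-RGC C (0.09). Of the list, 3 genes were lower. Atoh7 itself, which is switched off as RGCs mature and whose locus carries the Cre, had 54.1, 89.4 and 50.8 in the mKO RGC libraries and 135, 126 and 179 in the mKO non-RGC libraries (log2 fold change -1.20, SE 0.25, limma adjusted p = 0.00386), with non-RGCs above RGCs in every library. Dlx1, of amacrine, horizontal and early RGC precursors, fell by 0.94 on the log2 scale and Zic2, of progenitors and ipsilateral RGCs, by 0.76.

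Genes of the axon and neuronal cytoskeleton were higher in 21 of 29 cases and lower in 0, with a median of 0.89. The neurofilament light chain Nefl had 2393, 2475 and 2501 in the mKO RGC libraries and 582, 711 and 688 in the mKO non-RGC libraries (log2 fold change 1.90, SE 0.0959, limma adjusted p = 1.84e-06), and the medium chain Nefm had 3310.4, 3495 and 3475 in the mKO RGC libraries and 1026, 1187 and 1400.1 in the mKO non-RGC libraries (1.52, SE 0.115). Sncg (γ-synuclein), an RGC marker of the adult eye, had 881, 901 and 884 in the mKO RGC libraries and 245, 313 and 394 in the mKO non-RGC libraries (1.51, SE 0.162). For these 3 genes the unbound cells kept a sizeable level. Nrn1 (neuritin), a membrane-anchored neurite growth factor, showed the widest gap of the list with 999.9, 1034 and 1012 in the mKO RGC libraries and 56.5, 59.8 and 37.8 in the mKO non-RGC libraries (4.31, SE 0.178). The axonal adhesion molecules L1cam (4336, 4519 and 4774 against 762, 893 and 549.7, 2.65) and Cntn2 (1714, 1793 and 1983 against 194, 186 and 162, 3.33) were also higher. Tubulins that all young neurons use were not called. Tubb3 gave 0.49, adjusted p = 0.0329. Tuba1a, with 933, 992 and 970.2 against 701, 883 and 1234 reads in overlapping groups, gave 0.08, adjusted p = 0.734, a direction that turned under total-read scaling and without mKO non-RGC A (-0.11). For Tubb3, with 1915, 2015 and 1999.7 against 1099.8, 1372 and 1831 reads, mKO non-RGC C lay near the RGC level, and without that library Tubb3 was called, at 0.69. Without the 3 libraries that stand apart, 26 of 29 genes of the list were higher.

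Genes of excitability and transmission were higher in 24 of 25 cases and lower in 0, with a median of 2.22. Chrnb3 and Chrna6, nicotinic acetylcholine receptor subunits through which RGCs receive cholinergic input, had the highest fold changes of the list. Chrnb3 had 2388, 2397 and 2466 in the mKO RGC libraries and 59.5, 67.4 and 51.8 in the mKO non-RGC libraries (log2 fold change 5.33, SE 0.119, limma adjusted p = 4.73e-07), and Chrna6 had 1735, 1760.2 and 1707 in the mKO RGC libraries and 58.8, 46.5 and 49 in the mKO non-RGC libraries (5.06, SE 0.121). Slc17a6 (VGLUT2), which loads glutamate into synaptic vesicles, had 2376, 2346 and 2363 in the mKO RGC libraries and 136, 127 and 95.1 in the mKO non-RGC libraries (4.31, SE 0.138). Every RGC library was above every non-RGC library for these genes by more than 10-fold. Scn2a1, a sodium channel of axons, had 2915, 2786 and 3086 in the mKO RGC libraries and 195, 232 and 172 in the mKO non-RGC libraries (3.88), and Grin1, the obligate NMDA receptor subunit, had 1009, 1009.6 and 1022 in the mKO RGC libraries and 121, 124 and 137 in the mKO non-RGC libraries (2.98). Without the 3 libraries that stand apart the count was again 24.

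Guidance and adhesion genes were higher in 18 of 28 cases and lower in 2, with a median of 1.03. Chl1, a close homologue of L1, had 2475, 2413 and 2509.7 in the mKO RGC libraries and 109.9, 125 and 60.1 in the mKO non-RGC libraries (4.70, SE 0.241), and the Eph receptor Epha6 had 547, 509 and 593 in the mKO RGC libraries and 27.5, 19.9 and 19.6 in the mKO non-RGC libraries (4.57, SE 0.176). Nrp2, a semaphorin co-receptor, had 1509, 1417 and 1450.1 in the mKO RGC libraries and 175, 145 and 136 in the mKO non-RGC libraries (3.26, SE 0.117), and Ret, the receptor of the GDNF family, had 2516, 2499.7 and 2547 in the mKO RGC libraries and 505, 511 and 316 in the mKO non-RGC libraries (2.54, SE 0.175). These receptors were high in RGCs in every library. Robo2, a Slit receptor of RGC axons, was 2.22-fold higher. Dcc, the netrin receptor, had 1086, 1071 and 1218 in the mKO RGC libraries and 590.0, 317 and 200.02 in the mKO non-RGC libraries, and its non-RGC values ranged widely, though below every RGC value (log2 fold change 1.74, SE 0.328, limma adjusted p = 0.00225). Gfra1, which pairs with Ret, went the other way with 395, 379 and 360.4 in the mKO RGC libraries and 927, 702 and 670.0 in the mKO non-RGC libraries (-1.003, SE 0.135), as did Epha3 (-0.87, SE 0.159).

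Promoter sequences are shown for an RGC factor and an axonal gene that rose together, as RefSeq gives them on GRCm38.p6 from 250 bases before to 50 after the start of the gene. Capitals mark CAGCTG or CAGATG, E-box letters that bHLH factors such as Atoh7 can bind, on either strand. Pou4f1 lies at chr14:104467950-104468249 and Sncg at chr14:34374620-34374919, both on the minus strand, and each window held 1 match.
Pou4f1: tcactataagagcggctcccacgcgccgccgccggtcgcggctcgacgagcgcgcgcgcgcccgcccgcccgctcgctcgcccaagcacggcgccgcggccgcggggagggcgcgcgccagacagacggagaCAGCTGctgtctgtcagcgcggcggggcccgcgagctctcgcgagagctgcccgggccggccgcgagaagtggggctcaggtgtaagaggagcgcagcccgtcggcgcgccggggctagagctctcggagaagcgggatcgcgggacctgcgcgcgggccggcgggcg
Sncg: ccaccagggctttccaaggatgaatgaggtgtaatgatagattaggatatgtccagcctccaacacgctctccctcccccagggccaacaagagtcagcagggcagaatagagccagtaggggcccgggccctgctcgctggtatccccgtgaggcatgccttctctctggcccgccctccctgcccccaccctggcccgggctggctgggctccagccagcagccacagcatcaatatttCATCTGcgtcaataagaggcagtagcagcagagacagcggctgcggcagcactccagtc
These letters occurred in 33.4% of the 27025 genes with a window, in 10 of 19 axon and cytoskeleton genes (52.6%) and in 6 of 23 RGC transcription factors (26.1%), and in 8 of 10 microglial genes. A match says only that the letters are present.

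Of 15 Hedgehog pathway genes tested, 2 were higher in mKO RGCs and 7 lower, with a median of -0.44. The median was -0.25 without mKO non-RGC A, and -0.73, with 10 genes lower, when the trend with transcript length was removed. Shh, the ligand that RGCs send to neighbouring progenitors, had 445, 421 and 441 in the mKO RGC libraries and 20.6, 34.2 and 42 in the mKO non-RGC libraries, a 13.7-fold difference with no overlap (log2 fold change 3.77, SE 0.244, limma adjusted p = 6.81e-06). Disp2, a relative of the Dispatched protein that releases lipid-bound Hedgehog, had 3287, 3214 and 3507 in the mKO RGC libraries and 293, 314 and 204 in the mKO non-RGC libraries (3.64, SE 0.156). Gli1, the transcription factor that is itself a target of the pathway, had 511, 619 and 541 in the mKO RGC libraries and 1373, 1659.6 and 1322 in the mKO non-RGC libraries, so each non-RGC library was above each RGC library (log2 fold change -1.38, SE 0.118, limma adjusted p = 3.12e-05). The other effectors Gli2 (-1.09, SE 0.168) and Gli3 (-0.75, SE 0.158), the signal transducer Smo (-0.84), the co-receptor Gas1 (-0.70) and the decoy Hhip (-0.83) were also lower. Ptch1, the main receptor and also a target, had 1094, 969 and 1103 against 1608, 1187 and 766 reads, with groups that overlapped and a non-RGC level that was lowest in library C (-0.11, adjusted p = 0.71). Its sign turned without mKO non-RGC A (0.14), and it was called lower with the trend with transcript length removed. The other 5 genes tested were not called either.

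Notch pathway genes were lower in 13 of 20 cases and higher in 1, with a median of -0.85. Notch signalling keeps progenitors from differentiating, and newborn neurons carry its Delta ligands. Dll1 had 746, 860.3 and 758 in the mKO RGC libraries and 1197, 1193 and 1284 in the mKO non-RGC libraries (-0.64, SE 0.0907), and Dll3 (-1.05, SE 0.112) and Dll4 (-1.07, SE 0.139) were lower as well. The Hes and Hey effectors of the pathway were lower too. Hes1 had 641, 569.8 and 609 in the mKO RGC libraries and 982, 1185 and 1467 in the mKO non-RGC libraries (-0.98, SE 0.144), Hes5 changed by -1.004, Hey2 by -1.19 and Heyl by -1.03, and Mfng, a glycosyltransferase that tunes the receptor, by -1.30. Jag2, a ligand of the Jagged type, was higher, with 1031, 978 and 1219.6 in the mKO RGC libraries and 419, 377 and 238 in the mKO non-RGC libraries (log2 fold change 1.67, SE 0.204, limma adjusted p = 0.000212). Notch1 had 3474, 3236 and 3353 against 4682, 3912 and 3434 reads (-0.25, adjusted p = 0.0978).

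**Figure D4:**
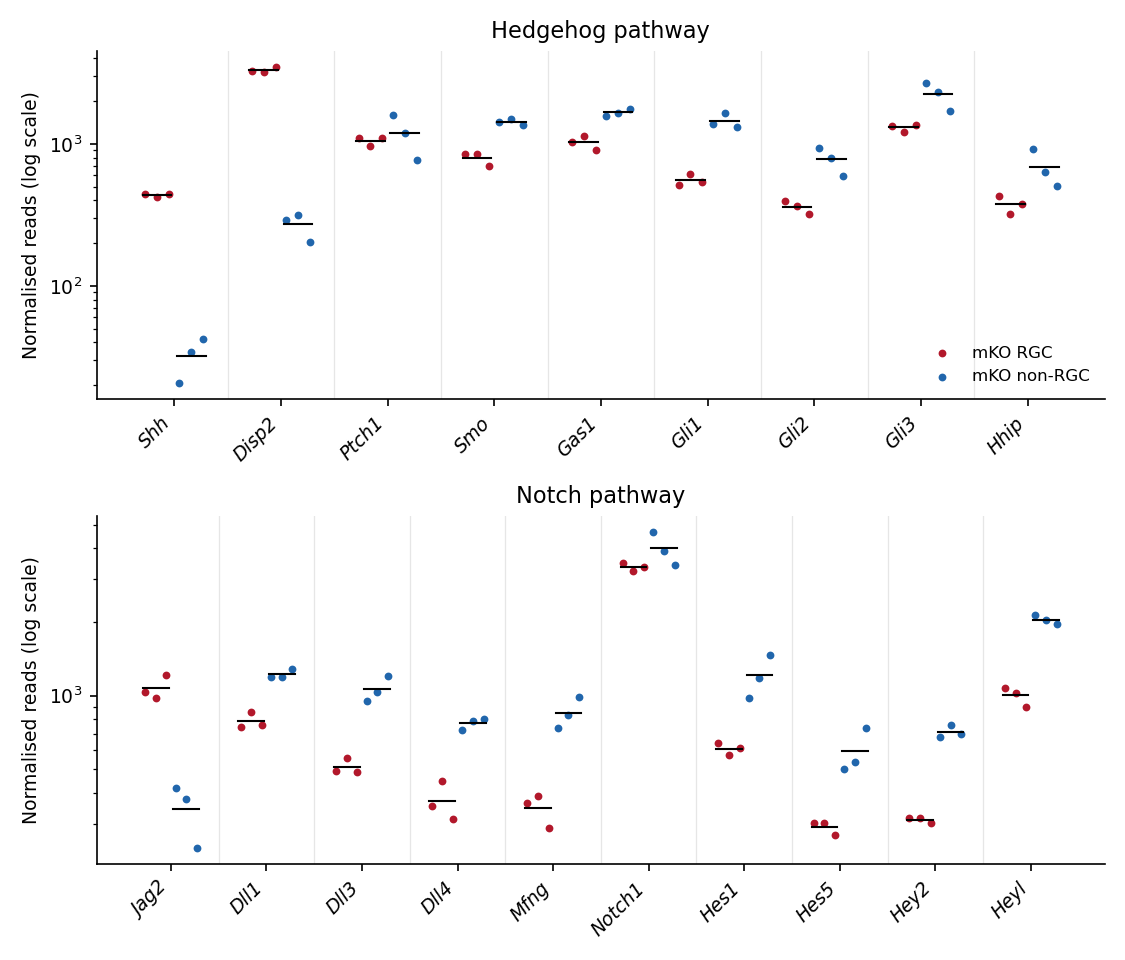
Normalised reads per library on a log scale for Hedgehog genes (top) and Notch genes (bottom) in mKO RGCs (red) and mKO non-RGCs (blue); bars are means of 3. Shh, Disp2 and Jag2 are higher in RGCs in every library, and the Gli, Hes and Hey genes plotted are lower, as for Gli1 with 511 to 619 against 1322 to 1660.

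Progenitor genes were lower in 14 of 18 cases and higher in 0, with a median of -0.82, and cell cycle genes were lower in 29 of 30 with a median of -0.95. Sox2, a factor that maintains progenitors, had 1019, 979 and 939 in the mKO RGC libraries and 1568, 1718 and 2052 in the mKO non-RGC libraries (log2 fold change -0.85, SE 0.11, limma adjusted p = 0.000283). Neurog2 (-1.004, SE 0.115) and Olig2 (-1.39, SE 0.154), bHLH factors of progenitors close to their last division, were lower too. All mKO RGC libraries lay below all mKO non-RGC libraries for these genes. Among mitotic genes, Aurka (Aurora kinase A) had 349.9, 375 and 285 in the mKO RGC libraries and 717, 891 and 974 in the mKO non-RGC libraries (-1.35, SE 0.149), Ccnb2 (cyclin B2) had 346, 386 and 322 in the mKO RGC libraries and 621, 827 and 874 in the mKO non-RGC libraries (-1.13, SE 0.146) and Cdk1 had 507, 546 and 430.1 in the mKO RGC libraries and 832, 985 and 1151 in the mKO non-RGC libraries (-0.99, SE 0.142). Top2a, a topoisomerase of dividing cells, changed by -0.62 and was just under the fold limit without mKO non-RGC C (-0.53). Mki67 (Ki-67) was the gene not called, with 3433, 3806 and 3714 against 5227, 4643 and 4262 reads (-0.36, adjusted p = 0.0108). The RGC libraries still held much of this RNA: the summed level of the 30 cell cycle genes was 27488 to 31010 in mKO RGCs against 46684 to 54673 in mKO non-RGCs. Without the 3 libraries that stand apart, 12 progenitor and 26 cell cycle genes were lower. Most of these differences were under 2-fold: at a fold limit of 2, 3 progenitor and 9 cell cycle genes were lower.

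Promoters of 4 cell cycle genes that fell together are printed below from RefSeq (GRCm38.p6, all on the minus strand). Capitals mark TTTGAA, letters of the CHR element found in cell cycle promoters, and CCAAT, letters bound by the factor NF-Y, on either strand (TTCAAA and ATTGG on the other). Top2a is at chr11:99024140-99024439, Cdk1 at chr10:69352863-69353162, Ccnb2 at chr9:70421505-70421804 and Aurka at chr2:172370521-172370820.
Top2a: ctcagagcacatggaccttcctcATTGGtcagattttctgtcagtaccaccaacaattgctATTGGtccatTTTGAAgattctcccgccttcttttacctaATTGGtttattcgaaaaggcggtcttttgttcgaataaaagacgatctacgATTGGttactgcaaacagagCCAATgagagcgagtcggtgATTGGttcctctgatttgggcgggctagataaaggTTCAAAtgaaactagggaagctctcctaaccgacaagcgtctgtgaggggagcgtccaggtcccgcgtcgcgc
Cdk1: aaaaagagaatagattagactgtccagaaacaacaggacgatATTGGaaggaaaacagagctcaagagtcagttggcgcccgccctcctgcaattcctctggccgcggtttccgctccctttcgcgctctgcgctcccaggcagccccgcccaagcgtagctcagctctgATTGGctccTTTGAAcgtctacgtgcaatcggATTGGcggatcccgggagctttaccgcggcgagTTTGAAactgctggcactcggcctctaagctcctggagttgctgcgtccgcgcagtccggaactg
Ccnb2: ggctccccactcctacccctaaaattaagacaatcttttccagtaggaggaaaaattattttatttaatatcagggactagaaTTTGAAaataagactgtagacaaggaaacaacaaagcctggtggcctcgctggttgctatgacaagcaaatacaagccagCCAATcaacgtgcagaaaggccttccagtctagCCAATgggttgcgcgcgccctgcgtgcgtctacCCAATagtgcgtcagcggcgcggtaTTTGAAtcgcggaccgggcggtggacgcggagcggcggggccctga
Aurka: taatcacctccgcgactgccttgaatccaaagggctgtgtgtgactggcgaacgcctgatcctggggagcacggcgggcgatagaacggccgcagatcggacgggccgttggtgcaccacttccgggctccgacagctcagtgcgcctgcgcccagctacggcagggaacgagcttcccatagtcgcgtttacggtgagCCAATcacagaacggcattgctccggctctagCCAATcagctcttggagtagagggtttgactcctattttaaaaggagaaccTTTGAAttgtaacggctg
The windows held 2, 2, 2 and 1 matches of TTTGAA and 6, 3, 3 and 2 of CCAAT, in the order printed. Of the 27 cell cycle genes with a window, 13 held TTTGAA (48.1%) and 23 held CCAAT (85.2%), against 20.2% and 41.1% of all 27025 genes with a window. Shares in small lists were as high or higher, such as 5 of 8 bipolar genes for TTTGAA (62.5%) and 7 of 7 pigment epithelium genes for CCAAT. Matches on both strands were counted, and the motifs can share the T at which CCAAT ends.

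Photoreceptor genes were lower in 19 of 24 cases and higher in 1, with a median of -0.85. Nrl, the rod-determining factor, had 569.8, 576 and 446 in the mKO RGC libraries and 843, 944 and 1208 in the mKO non-RGC libraries (log2 fold change -0.90, SE 0.157, limma adjusted p = 0.0015), and Nr2e3, which acts with it, had 416, 447 and 327 in the mKO RGC libraries and 751, 813 and 1045 in the mKO non-RGC libraries (-1.13, SE 0.161). Opn1sw, the short-wave cone opsin, had 505, 599 and 502 in the mKO RGC libraries and 1029.6, 1106 and 1483 in the mKO non-RGC libraries (-1.16, SE 0.148). The groups did not overlap for these genes. Crx, the homeobox factor of both photoreceptor types, had 1277, 1246 and 1189 in the mKO RGC libraries and 1875, 1963 and 2381 in the mKO non-RGC libraries (-0.74, SE 0.104), and Sag (arrestin) had 433, 383 and 379 in the mKO RGC libraries and 724, 769 and 944 in the mKO non-RGC libraries (-1.02, SE 0.124). Rxrg, a nuclear receptor of cones that RGCs also express, was the higher gene (813, 891 and 846 against 434, 450.3 and 611, 0.79). Photoreceptor RNA was also present with the RGCs: the summed level of the list was 12281 to 12868 in mKO RGCs and 20035 to 23319 in mKO non-RGCs.

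The promoters of Crx (chr7:15879906-15880205, minus strand) and Sag (chr1:87803430-87803729, plus strand) are shown because Crx binds its own promoter and those of photoreceptor genes at TAATCC; capitals mark these letters on either strand (GGATTA on the other).
Crx: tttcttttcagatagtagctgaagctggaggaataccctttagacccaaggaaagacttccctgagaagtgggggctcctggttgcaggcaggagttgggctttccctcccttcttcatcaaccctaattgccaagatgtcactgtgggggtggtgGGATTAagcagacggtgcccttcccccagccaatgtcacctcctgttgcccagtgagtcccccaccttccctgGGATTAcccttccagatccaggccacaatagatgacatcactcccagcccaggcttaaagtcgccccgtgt
Sag: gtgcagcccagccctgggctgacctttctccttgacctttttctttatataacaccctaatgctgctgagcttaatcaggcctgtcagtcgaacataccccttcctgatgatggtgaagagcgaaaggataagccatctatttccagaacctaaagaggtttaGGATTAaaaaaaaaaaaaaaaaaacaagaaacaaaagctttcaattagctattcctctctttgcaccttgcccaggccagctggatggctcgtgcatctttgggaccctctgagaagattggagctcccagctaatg
Crx held 2 matches and Sag 1. Of the 20 photoreceptor genes with a window, 8 held the letters (40.0%), against 8.14% of all genes with a window. The share was higher among the pigment epithelium genes, at 5 of 7 (71.4%).

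Amacrine and horizontal cell genes were lower in 14 of 20 cases and higher in 3, with a median of -0.82. Ptf1a, the factor that sets both fates, had 112, 127 and 98.8 in the mKO RGC libraries and 247, 267 and 320.3 in the mKO non-RGC libraries (log2 fold change -1.30, SE 0.157, limma adjusted p = 0.000204). Tfap2b (-0.73, SE 0.0962) and the GABA genes Gad1 (549, 458 and 520.4 against 933, 1089 and 1062, -1.01) and Slc32a1 (-1.25, SE 0.132) were lower in every library. The 3 higher genes are also known from RGCs: Calb1 (268, 222 and 225 against 25.2, 33.2 and 29.4, 2.99), Calb2 (1611, 1677 and 1651 against 375, 406 and 579, 1.89) and Neurod2 (1.49, SE 0.126). Of the bipolar genes, 6 of 9 passed the filter on low values, of which 4 were lower and 2 higher (median -0.98), with 1 higher without mKO non-RGC C. Lhx4, also found in cones, had 278, 339 and 285 in the mKO RGC libraries and 779, 717 and 803 in the mKO non-RGC libraries (-1.35, SE 0.112), and Pcp2 changed by -2.14 (SE 0.399).

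Genes of microglia, the immune cells of the retina, were higher in 13 of 14 cases, with a median of 3.53. Csf1r, the receptor microglia need to survive, had 986, 695 and 474 in the mKO RGC libraries and 30.5, 67.4 and 28 in the mKO non-RGC libraries (log2 fold change 4.12, SE 0.367, limma adjusted p = 3.83e-05), and Cx3cr1, their fractalkine receptor, had 633, 499.8 and 286 in the mKO RGC libraries and 11.4, 43.7 and 12.6 in the mKO non-RGC libraries (4.52, SE 0.498). P2ry12, a purinergic receptor of resident microglia, had 296, 210.2 and 148 in the mKO RGC libraries and 9.16, 17.1 and 5.59 in the mKO non-RGC libraries (4.30, SE 0.398). In RGCs all 3 genes were highest in library A and lowest in C, though each RGC library was above each non-RGC library. Cd68, a lysosomal protein, was not called (0.60, adjusted p = 0.0551) and passed without mKO non-RGC B (0.85). Summed over the 14 genes, the level was 4442, 3446 and 2218 in mKO RGC A, B and C and 242 to 453 in mKO non-RGCs, and no marker was at 0 in either group. The RGC libraries thus held microglial RNA besides RGC RNA, and its part in other differences was not tested.

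Mesenchymal genes depended on the library. They were higher in 5 and lower in 2 of the 12 of 14 genes that passed the filter, with a median of 2.13, but the summed level was 8856 in mKO RGC A, 1138 in B and 2961 in C, against 642 to 1303 in mKO non-RGCs. Collagen genes showed it best: Col1a1 had 1993, 172 and 570.3 in the mKO RGC libraries and 144, 164 and 75.5 in the mKO non-RGC libraries (2.25, adjusted p = 0.0339), with RGC B close to the non-RGC values, and Col3a1 had 2403, 229.6 and 875 in the mKO RGC libraries and 98.5, 209 and 22.4 in the mKO non-RGC libraries (3.32, adjusted p = 0.0174). Without mKO RGC A, 1 gene of the list was higher and the median was 1.13, and neither Col1a1 (1.36) nor Col3a1 (2.51) was called. Without mKO RGC B 8 genes were higher, without mKO RGC C or mKO non-RGC B 2 were, and without mKO non-RGC C 3 were. Col1a1 was also not called without mKO RGC C (2.26), mKO non-RGC B (2.47) or mKO non-RGC C (1.91), and Col3a1 was not called without mKO RGC C (3.24). Postn (periostin) had 669, 90.4 and 232 in the mKO RGC libraries and 19.1, 56 and 6.99 in the mKO non-RGC libraries (3.54, adjusted p = 0.00694). Endothelial and pericyte genes were higher in 6 and lower in 5 of 16 cases (median 0.31), and without the 3 libraries that stand apart in 4 and 5, with a median of -0.41. The median was -0.43 without mKO RGC A alone, 0.62 without mKO RGC B and near 0 without mKO non-RGC C. After the filter on low values was raised to 50 normalised reads, 10 genes of the list remained, 1 higher and 5 lower. Their median was -0.60, so the sign of the list's median also depended on the filter. The list split within itself: Tek, the angiopoietin receptor of endothelium, had 69.8, 28.6 and 44.2 in the mKO RGC libraries and 3.82, 5.7 and 1.4 in the mKO non-RGC libraries (3.42, SE 0.478), and Rgs5, of pericytes, had 650.0, 105 and 194 in the mKO RGC libraries and 48.8, 38.9 and 11.2 in the mKO non-RGC libraries (3.04, SE 0.709). Cldn5, a tight junction protein, had 161, 169 and 125 in the mKO RGC libraries and 352, 357 and 596 in the mKO non-RGC libraries (-1.48, SE 0.223), and Kdr, a VEGF receptor that retinal progenitors also express, changed by -0.59 (SE 0.0787) and was not called without mKO RGC B, mKO RGC C or mKO non-RGC C (-0.58 to -0.53).

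Lists of glia and of tissues around the retina followed. Müller glia and astrocyte genes were lower in 4 and higher in 1 of 13 cases, with a median of -0.40 (-0.22 without mKO non-RGC C), and 7 were lower under total-read scaling. Rlbp1, a retinoid carrier of Müller glia that progenitors also express, had 366, 376 and 331 in the mKO RGC libraries and 675, 877 and 922 in the mKO non-RGC libraries (-1.19, SE 0.134), and Glul, the glutamine synthetase of Müller glia, was not called (-0.40, adjusted p = 0.0522). Gfap, the filament of astrocytes on the inner retina, was high in library A of each fraction, with 699, 35 and 59.3 in the mKO RGC libraries and 248, 45.6 and 40.6 in the mKO non-RGC libraries (0.55, adjusted p = 0.687), and its sign turned without mKO RGC A (-0.75). Pigment epithelium genes were lower in 6 and higher in 2 of 10 cases, with a median of -1.53; Pmel, a melanosome protein, had 336, 282 and 225 in the mKO RGC libraries and 809, 799 and 911 in the mKO non-RGC libraries (-1.59, SE 0.151), and Dct, an enzyme of melanin synthesis, changed by -1.84 (SE 0.212). Of the 10 blood genes, 2 were not analysed here and 5 passed the filter, 4 of them lower (median -0.95), with Alas2, the erythroid haem synthase, at 56.7, 24.9 and 29.2 in the mKO RGC libraries and 219.8, 97.8 and 136 in the mKO non-RGC libraries (-2.02, SE 0.374). Of 15 lens genes, 6 passed, 2 higher and 1 lower (median 0.38, or 0.24 without mKO non-RGC B; 0 lower without mKO RGC B or mKO non-RGC B), with a summed level of 150 to 216 in mKO RGCs and 123 to 138 in mKO non-RGCs.

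Of 11 PRC2 genes, 2 were higher and 2 lower, with a median of -0.23. Ezh1, the paralogue of Ezh2 that prevails in cells that no longer divide, had 933, 966 and 964 in the mKO RGC libraries and 629.7, 636 and 527 in the mKO non-RGC libraries (log2 fold change 0.68, SE 0.0999, limma adjusted p = 0.000601). Phf19, an accessory subunit, had 75.9, 80.2 and 51.8 in the mKO RGC libraries and 141, 219 and 141 in the mKO non-RGC libraries (-1.25, SE 0.242), and the core subunit Eed had 578, 596 and 534 in the mKO RGC libraries and 839, 823 and 923 in the mKO non-RGC libraries (-0.60, SE 0.0932). Eed lay just past the fold limit and was not called without mKO RGC C (-0.55) or without mKO non-RGC C (-0.55), and without mKO non-RGC A 1 gene of the list was higher. Suz12, another core subunit, differed little (-0.19, adjusted p = 0.0524), and Rbbp4 and Rbbp7 were not called. Under total-read scaling 3 of the genes were lower and 0 higher.

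Immediate early and heat shock genes, which respond to stimulation and to tissue dissociation, were higher in 2 and lower in 3 of 22 cases, with a median of -0.26, and 8 were lower under total-read scaling, 5 without mKO non-RGC A (median -0.41) and 1 without mKO RGC C, and the median was -0.13 without mKO non-RGC C. Nr4a1 had 1893, 1877 and 2026 in the mKO RGC libraries and 639.6, 799 and 809.9 in the mKO non-RGC libraries (1.37, SE 0.108), and Fosl2 had 1585, 1288 and 1481 in the mKO RGC libraries and 326, 239 and 197 in the mKO non-RGC libraries (2.53, SE 0.179). Egr2 was lower (-1.01, SE 0.157). Fos, the usual reporter of such a response, had 1866, 1894 and 1901 against 1107, 1574 and 1632 reads and was not called (0.41, adjusted p = 0.0377). How far dissociation moved these genes was not tested.

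The 12 genes with the highest ratio of means, taken from called genes that reached a mean of 50 in mKO RGCs and did not overlap between fractions, included macrophage genes and channel, receptor and synapse genes. Cd163 and F13a1, genes of macrophages at vessels and tissue borders, were at 0 reads in every mKO non-RGC library. In mKO RGC A, B and C, Cd163 had 141, 32.3 and 17.9 and F13a1 320.2, 71 and 62.1 normalised reads. Their means over the 3 libraries were at least 20.5-fold and at least 48.6-fold above the mean level of 3 reads per non-RGC library. Libraries B and C alone give smaller folds. Mrc1, the mannose receptor of the same cells, had 537, 125 and 87.5 in the mKO RGC libraries and 1.53, 2.85 and 1.4 in the mKO non-RGC libraries. These 3 genes were highest in library A, which was also the library with the most mesenchymal reads. Htr5a, a serotonin receptor, had 376, 349 and 322 in the mKO RGC libraries and 6.11, 3.8 and 0 in the mKO non-RGC libraries (log2 fold change 6.75, SE 0.636, limma adjusted p = 5.09e-05). Tusc5 had 503, 349 and 372 in the mKO RGC libraries and 3.82, 4.75 and 4.2 in the mKO non-RGC libraries (6.27, SE 0.217), and Myo3b, a myosin known from sensory cells, had 209, 216 and 244 in the mKO RGC libraries and 3.82, 1.9 and 1.4 in the mKO non-RGC libraries (6.11, SE 0.303). Piezo2, the mechanosensitive channel, had 288, 271 and 349 in the mKO RGC libraries and 6.11, 0.95 and 1.4 in the mKO non-RGC libraries (6.55, SE 0.458). These 4 genes were high in all 3 RGC libraries and at a few reads in non-RGCs. Cbln4, a synaptic organiser, had 111, 74.7 and 113 in the mKO RGC libraries and 0, 0.95 and 0 in the mKO non-RGC libraries. The others were Ahnak2 (6.30), Zfp804b (6.05), 1300002K09Rik (6.26) and 4931429I11Rik (5.35), the last with 0 to 2 reads per non-RGC library.

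The 12 genes with the lowest ratio had smaller differences, from -2.32 to -2.03 in the log2 ratio of means. Dio3, the deiodinase that inactivates thyroid hormone, had 99.5, 78.4 and 77.2 in the mKO RGC libraries and 426, 281 and 401 in the mKO non-RGC libraries (log2 fold change -2.09, SE 0.192, limma adjusted p = 4.4e-05), and Dio3os, transcribed from the opposite strand at the same imprinted locus, had 19.2, 21.2 and 20.7 in the mKO RGC libraries and 58.8, 103 and 93.7 in the mKO non-RGC libraries (-1.97, SE 0.253). Reads of the pair cannot be told apart where they overlap, since the sources do not say that strand was counted. Hes2 (27.9, 50.7 and 27.3 against 109.9, 166 and 168, -2.07), Krt18 (87.3, 66.4 and 53.6 against 263, 241 and 376, -2.07) and Sp5 (26.2, 14.8 and 30.1 against 87.8, 131 and 105, -2.18), a target of Wnt signalling, were all low in RGCs. Crxos1, antisense to Crx and uncertain for the same reason, changed by -1.99, and Ttr, the transthyretin made by pigment epithelium, by -2.06. The rest were Cpz (-2.45), RP23-131O4.2 (-2.15), Atp6v1e2 (-2.31), Glt28d2 (-1.93) and 4732456N10Rik (-1.98).

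The counts of the lists in WT, whose difference from the mKO counts was not tested, stood as follows. RGC transcription factors were higher in 18 and lower in 1 of 32 cases (median 0.69), axon genes higher in 26 of 29 (1.18), excitability genes higher in 23 of 25 (2.36) and guidance genes higher in 15 and lower in 4 of 28 (0.71). Hedgehog genes were higher in 2 and lower in 8 of 16 cases (-0.65), Notch genes higher in 2 and lower in 13 of 20 (-0.81), progenitor genes lower in 11 of 18 (-0.77), cell cycle genes lower in 29 of 30 (-0.95) and photoreceptor genes higher in 1 and lower in 12 of 24 (-0.88). These counts stand beside 22.4% of all WT genes higher, 9.99% lower and a median of 0.05. Microglial genes were higher in 13 of 14 cases (4.94) and mesenchymal genes in 0 of 13 (1.37), the latter with a summed level of 6386, 20035 and 876 in WT RGC A, B and C. Blood genes were lower in 0 of 6 cases (-0.30), pigment epithelium genes higher in 2 and lower in 2 of 8 (-0.92), and endothelial and pericyte genes higher in 2 and lower in 1 of 16 (0.55), against more calls in mKO. Amacrine and horizontal cell genes were higher in 2 and lower in 14 of 20 (-0.96), bipolar genes higher in 1 and lower in 2 of 6 (-0.32), Müller glia and astrocyte genes higher in 1 and lower in 3 of 13 (-0.35), and lens genes higher in 2 and lower in 0 of 7 (0.66). PRC2 genes were higher in 1 and lower in 1 of 11 (-0.36), and immediate early and heat shock genes higher in 2 and lower in 0 of 22 (0.08).

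Whether the difference between fractions itself differed from that in WT was tested with an interaction term over all 12 libraries. Of 16511 genes, 16 had a smaller difference in mKO (0.0969%) and 0 a larger one (0.0%). Calls used limma at an adjusted p under 0.05 and a 1.5-fold change. The interaction is the log2 fold change in mKO minus that in WT. With limma voom it was negative in 17 called genes and positive in 0. At an unadjusted limma p under 0.05 it was positive in 1226 genes and negative in 443. For genes lower in RGCs this sign does not give the size of the difference. All 16 were higher in RGCs in both genotypes. Thy1, the handle of the sort, had the largest interaction of the 16. WT RGCs had 2394, 2519 and 2208 and WT non-RGCs 4.52, 1.94 and 9.4 normalised reads, so its log2 fold change was 8.75 in WT and 4.16 in mKO (difference -4.58, SE 0.461, adjusted p = 0.00104). The WT non-RGC values were near the level of 3 reads (2.71 to 3.13 in these libraries), so the size of the WT fold change rests on few reads.

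Sncg had 1275, 1332 and 1378 in WT RGCs and 108, 89.1 and 108 in WT non-RGCs, against the mKO values given above (difference -2.19, SE 0.216, adjusted p = 0.00104). Pou4f2 had 2959.7, 3047 and 2446 and 47.9, 35.9 and 72 in the WT fractions (difference -2.14, SE 0.306, adjusted p = 0.0131). For both genes every mKO non-RGC library was above every WT non-RGC library. Irx4, an Iroquois factor, had 1199, 1288 and 1299 in the mKO RGC libraries and 46.6, 78.8 and 51.8 in the mKO non-RGC libraries, and 2096, 2001 and 1637 and 13.6, 5.81 and 14.6 in WT (difference -2.93, SE 0.399). Adcyap1, the neuropeptide PACAP, had 576, 514 and 529 in the mKO RGC libraries and 29.8, 22.8 and 22.4 in the mKO non-RGC libraries, and 651, 600.3 and 432 and 6.32, 1.94 and 3.13 in WT (difference -2.57, SE 0.42). The transcript RP24-312G4.2 had 866, 925 and 945 in the mKO RGC libraries and 70.2, 54.1 and 104 in the mKO non-RGC libraries, and 819, 819 and 628 and 1.81, 2.91 and 7.31 in WT (difference -3.76, SE 0.476). For Adcyap1 and RP24-312G4.2 the WT non-RGC values were also near the level of 3 reads.

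As a description of genes chosen by this term, in 16 of the 16 every mKO non-RGC library was above every WT non-RGC library, by 0.51 to 4.24 in the log2 ratio of means (median 1.19), and in 12 every mKO RGC library was below every WT RGC library. The share of all genes separated between genotypes in these ways was not counted, so these counts have no background to read against. The summed level of the 5 RGC markers, of which Thy1 and Pou4f2 are among the 16, moved the same way. It was 776 to 872 in mKO non-RGCs against 229 to 496 in WT non-RGCs. In RGCs it was 9429 to 9921 in mKO against 12812 to 14760 in WT. Summed levels of the longer RGC lists, which weigh abundant genes most, were not higher in mKO non-RGCs. These sums were 19904 to 21221 against 23671 to 27448 in WT for transcription factors, and 37299 to 47870 against 45254 to 49156 for axon genes. Excitability genes had 14959 to 16402 against 16986 to 18298, and guidance genes 22466 to 29761 against 32907 to 43161. By gene, the interaction was negative in 28 of 29 axon genes (median -0.38) and in 4 of 28 guidance genes (median 0.48). It was negative in 17 of 32 transcription factors and 14 of 25 excitability genes (medians of -0.07). The median over all genes tested was -0.002. The part of the marker shift in the 16 genes was not tested. For Pou4f1 (difference -2.15, adjusted p = 0.113), Pou4f3 (-3.24, adjusted p = 0.291) and Rbpms (-1.32, adjusted p = 0.0667) the difference between genotypes did not pass. The count moved with single libraries. It was 7 without any of mKO RGC A, mKO RGC B, WT RGC A or WT RGC B, and 10 without mKO RGC C. It was 32 without WT non-RGC C and 278 without mKO non-RGC A (231 with a positive and 47 with a negative interaction). Without mKO RGC A, mKO non-RGC C and WT RGC C together it was 5. Log2 levels, as differences from each gene's mean over all 12 libraries, also related differently to GC content in the genotypes. Their Spearman correlation with GC content across genes was -0.37 to -0.12 in the mKO libraries and 0.13 to 0.50 in the WT libraries. These signs are relative to the other libraries and do not give the trend within a library. With the trend with GC content removed, 16 genes were called, 13 of them shared with the 16 above and all with a negative interaction. Of the 6 genes named above, Pou4f2 was not called in 6 of the fits that left out a library, Adcyap1 in 8 and Irx4 in 4, at differences of -2.16 to -2.01, -2.64 to -2.45 and -2.95 to -2.86. Without the 3 libraries that stand apart, Thy1 (-4.52), RP24-312G4.2 (-3.61), Irx4 (-3.08), Adcyap1 (-2.86) and Pou4f2 (-2.40) were not called.

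**Figure D5:**
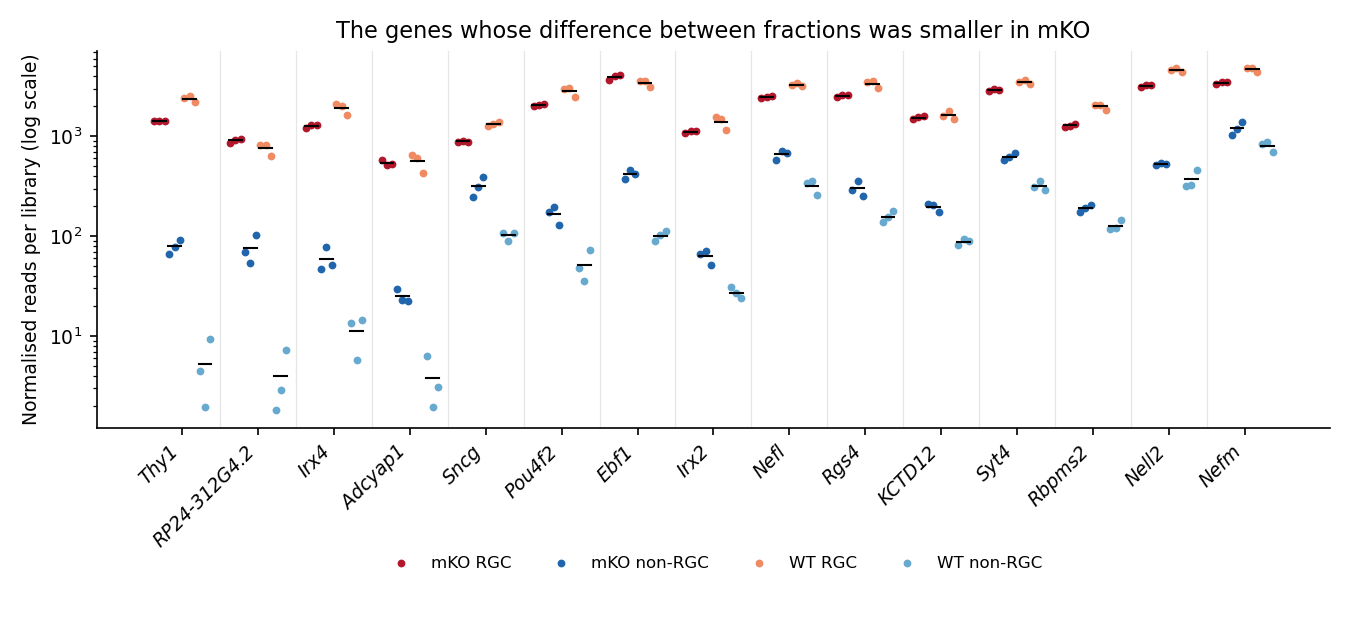
Normalised reads per library on a log scale for 15 of the 16 genes with a smaller difference between fractions in mKO, ordered by the size of the interaction; red and orange are mKO and WT RGCs, dark and light blue mKO and WT non-RGCs, and bars are means of 3. The mKO non-RGC libraries lie above the WT ones for each gene plotted, as for Thy1 with 66.4 to 92.3 against 1.94 to 9.40. The genes were chosen by the interaction, which uses these same values, and the share of all genes separated this way was not counted.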

How the data were processed

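Poly-A RNA was sequenced single-end. Per the labels and the methods, the authors aligned reads to mm10 with STAR 2.3.1z4, removed duplicates, counted primary alignments per gene with featureCounts and normalized with DESeq. The deposited values are a signal: the mean over a genotype's 3 libraries of the counts after division by each library's size factor, in 1 table per fraction, normalized apart. Columns of the authors' own comparisons (fold changes, p-values) were not used. Because each mean is a sum of 3 whole counts over fixed size factors, the reads of each library were recovered from the deposited signal as whole numbers, for 100% of the 25690 mKO RGC, 24386 mKO non-RGC, 23544 WT RGC and 22931 WT non-RGC genes with reads. With a shifted step, 0 of 506, 472, 462 and 440 genes were solved. Recovered libraries carry no replicate number.

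Genes with a group mean of at least 10 were fitted with limma 3.58.1 (trend, R 4.3.3; Python 3.11.15) on log2(value + 1), with Benjamini-Hochberg adjustment over all genes tested. The interaction was fitted over all 12 libraries. On simulated 2-fold changes, the mKO comparison recovered 198 of 200 changed genes with 3 false calls among 15962 genes. The interaction recovered 185 of 200 with 12 false calls among 15912. These rates hold for the simulated counts only and do not give the power or error rate in the real libraries. There, all 5 RGC markers had an interaction of -1.32 or lower, beyond 2-fold, and 3 of them were not called. A count of 3 reads, the limit that 0 reads allows, is 2.29 to 4.196 normalised reads, which covers counting error only. Alternatives changed the pseudocount, filter, scaling, test, fold limit and GC correction, and left out each library. The compared groups and gene lists were chosen with earlier results of these data known. Besides list members, the text names the 12 called genes with the highest and the 12 with the lowest ratio of means and the 6 with the largest interaction. Results for 6 genes are not reported here, though counts include them. Promoters came from RefSeq (GRCm38.p6).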

Additional observations from a re-analysis of the deposited data

Results flagged for a closer look

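For 16 genes the difference between RGCs and non-RGCs differed between genotypes by a test of the difference itself (limma interaction term, Benjamini-Hochberg adjusted p of 0.000596 to 0.0383), and in every case it was smaller in mKO; 15 of them are named. The interaction, as the log2 fold change in mKO minus that in WT, was -4.581 for Thy1, -3.764 for RP24-312G4.2, -2.93 for Irx4, -2.566 for Adcyap1, -2.19 for Sncg and -2.144 for Pou4f2. It was -1.849 for Ebf1, -1.496 for Irx2, -1.466 for Nefl and -1.314 for Rgs4, a regulator of G protein signalling. It was -1.229 for KCTD12 and for Syt4, a vesicle protein, -1.211 for Rbpms2, a relative of Rbpms, -1.054 for Nell2, a secreted axon guidance protein, and -1.03 for Nefm. The summed RGC markers, which include Thy1 and Pou4f2 themselves, had 776 to 872 normalised reads in mKO non-RGCs against 229 to 496 in WT non-RGCs. The sums of the longer RGC lists, which weigh abundant genes most, were not higher in mKO non-RGCs than in WT non-RGCs. By gene, the interaction was negative in 28 of 29 axon genes and in 4 of 28 guidance genes. It was negative in 17 of 32 transcription factors and 14 of 25 excitability genes. The part of the marker shift in these values was not tested.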

How the results depend on the processing

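The mKO count of 6532 called genes stayed between 5961 and 6933 when each library was left out, was 7180 under total-read scaling, 6509 with limma voom, 6134 with the trend with transcript length removed and 6205 without mKO RGC A and mKO non-RGC C, and fell to 4273 at a fold limit of 2, where list members called fell from 262 to 168. The correction for length and the joint removal of mKO RGC A, mKO non-RGC C and WT RGC C were chosen after seeing the data. The interaction count of 16 ranged from 7 to 278 when each library was left out (278 without mKO non-RGC A, 32 without WT non-RGC C, 10 without mKO RGC C, and 7 without any of mKO RGC A, mKO RGC B, WT RGC A or WT RGC B), was 26 under total-read scaling and was 5 without those 3 libraries; the cause was not tested.

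Ezh2 (-0.58, not called) was called with size factors computed anew (-0.66), total reads (-0.81), no rescaling (-0.60), no fold limit (-0.58), and the trend with GC content (-0.68) or length (-0.59) removed, and ranged from -0.68 to -0.47 when each library was left out, where it was called without mKO RGC B (-0.61), mKO RGC C (-0.59), mKO non-RGC A (-0.68) or mKO non-RGC B (-0.60). When each library was left out, Gfap ranged from -0.75 (without mKO RGC A) to 1.39, Ptch1 from -0.39 to 0.14 (without mKO non-RGC A), Sox4 from -0.24 to 0.095 (without mKO non-RGC C) and Tuba1a from -0.11 (without mKO non-RGC A) to 0.29. The sign also turned without the 3 libraries for Gfap (-1.21) and Sox4 (0.13), and with total reads for Tuba1a (-0.14); the main fold changes of these 4 genes were not called. Of 2446 values for 137 named genes, 2384 kept direction and call, 42 lost the call, 13 gained it and 7 turned; of 142 interaction values for 6 named genes, 24 lost the call, in 5 genes. No paired analysis was possible because the recovered libraries carry no replicate numbers. The shallowest library, mKO non-RGC C, sets a limit of 4.196 normalised reads for genes at 0.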
